A study of Mus musculus with 3 samples.

Results

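Dividing cells were examined among mouse cells sorted for a motor neuron reporter at 14 dpi, the labels' unit of time, in a conversion of embryonic fibroblasts toward motor neurons. A cell was counted as dividing when Mki67, Top2a, Cenpf, Cdk1, Ccnb1, Ccnb2, Ccna2, Birc5, Ube2c and Nusap1, 10 genes of the late cell cycle, together held at least 0.1% of its unique molecular identifiers (UMIs, the counted transcript molecules). The members were therefore chosen on measured values. The rule took 535 of the 6030 cells kept at 14 dpi, in a series of 10522 kept cells. A cell was kept when it had at least 500 detected genes and at most 20% of its UMIs from the 13 mitochondrially encoded genes. In the library with supplements, 220 of 2314 cells were dividing, a share of 9.51% (95% exact binomial interval 8.34 to 10.8). In the library without supplements, 315 of 3716 cells were dividing, a share of 8.48% (7.60 to 9.42). Intervals throughout cover counting error only. The dividing cells are set beside the 1813 and 2698 cells of the same libraries in which the rule genes held under 0.01%. The 281 and 703 cells between those limits were left out of the gene comparisons.

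A dividing cell copies its DNA in S phase and separates the copies in mitosis. E2F transcription factors switch on the genes of DNA replication, and a later wave of genes, bound by the MuvB proteins with B-Myb and FoxM1, carries the cell through G2 and mitosis. Cyclin-dependent kinases drive both steps, and inhibitors such as p21, a product of a p53 target gene, hold them back. Neurons are born by leaving the cycle and do not normally divide again, while embryonic fibroblasts divide in culture.

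All cells carried Hb9::GFP, in which green fluorescent protein is driven by regulatory DNA of Mnx1, a motor neuron transcription factor gene. They had received LNI, a cassette of Lhx3, Ngn2 (Neurog2 in the files) and Isl1, and DDRR, which couples HRAS(G12V), an activated form of RAS, to p53DD, a dominant negative fragment of p53. Both 14 dpi libraries came from live, Hb9::GFP-positive cells dissociated with papain and DNase. One culture had received supplements, namely BDNF, CNTF, GDNF and FGF with the TGF-beta receptor kinase inhibitor RepSox, and the other had received none. Another library, used here only for its share of dividing cells, was sorted at 4 dpi for low CellTrace-FarRed, a dye diluted by division, from a culture with supplements. Each group is 1 library and all libraries carry 1 batch date, so differences between libraries have no replicate check, and no p-value is given. The 3′ libraries do not separate introduced from endogenous transcripts of Lhx3, Neurog2, Isl1, Hras and Trp53.

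Dividing cells had a median of 15829 UMIs with supplements and 13503 without, against 14308 and 10686.5 in the cells under 0.01%. The median number of rule-gene UMIs in a dividing cell was 35.5 with supplements and 51 without. Some members rested on few molecules: 12 and 5 of them had fewer than 5 rule-gene UMIs. Ribosomal protein genes held 17.1% and 22.4% of UMIs in dividing cells, against 13.1% and 18.7% in the cells under 0.01%, and the median mitochondrial share was lower in dividing cells, at 4.81% and 3.58% against 6.06% and 4.83%. Their part in the gene differences was not tested. Cell barcodes shared between libraries numbered 3, 4 and 5 for the 3 pairs of libraries, and none belonged to a dividing cell in both. By the same rule, 34.3% of cells at 4 dpi were dividing, in a library of a median of 2312.5 UMIs a cell. Of those 1541 members at 4 dpi, 485 had fewer than 5 rule-gene UMIs, and their median was 7. With each cell thinned to 2000 UMIs, the shares were 10.1% with supplements, 9.71% without and 45.7% at 4 dpi. Cells below that depth were left out, 83 and 59 at 14 dpi but 1759 of 4492 at 4 dpi, so the last share holds for the 2733 deeper cells of its library.

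The markers of dividing cells were present in both libraries. Mki67, the gene of the Ki-67 antigen of cycling nuclei, had 273 CPM with supplements and 462 CPM without in dividing cells (CPM, UMIs per 1e+06 UMIs of the summed cells), against 0.561 and 0.699 CPM in the cells under 0.01%. Top2a, a topoisomerase that untangles chromosomes, had 565.5 and 835 CPM in dividing cells against 2.0 and 2.43 CPM. Cenpf, a kinetochore protein gene, had 371 and 444 CPM against 3.09 and 1.61 CPM. These genes chose the cells, so their levels describe the rule. Prc1, which bundles the spindle midzone and was not in the rule, had 237 and 418 CPM in dividing cells against 2.88 and 5.05 CPM. The rule draws a line through a continuous share. The 10 members just inside it had 0.101% to 0.107% with supplements and 0.101% to 0.117% without, and the 10 cells just outside had 0.0930% to 0.0994% and 0.0912% to 0.0984%.

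**Figure D1:**
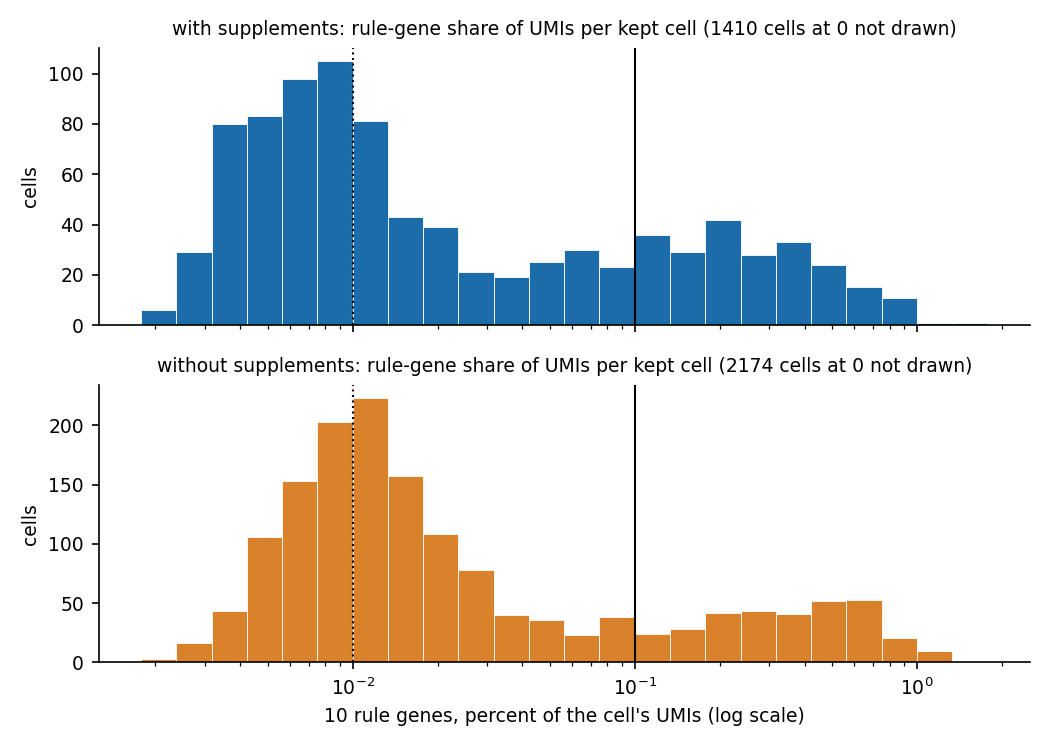
Histograms of the share of UMIs held by the 10 rule genes in each kept cell (x axis, percent on a log scale; y axis, cells), with supplements above and without below. The solid line marks the limit of 0.1% for dividing cells and the dotted line the limit of 0.01% for the compared cells, and the 1410 and 2174 cells at 0 are not drawn. Both libraries show a broad rise above 0.1%, with 19 and 33 cells within 0.02 percentage points below the limit and 24 and 12 within 0.02 points above it.

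Promoter sequences of some genes that were high in the dividing cells are shown because the late and early waves of the cycle are known for different promoter elements. Genes that did not have exactly 1 promoter window, or had no motif of their wave in the printed bases, were passed over, also some with higher levels. The presence of a motif in the printed windows was thus fixed by the choice. Each is the 150 bases before the RefSeq start of the gene (build GRCm38.p6, read in the direction of transcription), in lower case. In the first 3, capitals mark the cell cycle genes homology region TTTGAA (CHR) and the box CCAAT on either strand, so that TTCAAA and ATTGG are the same motifs on the other strand. In the last 2, capitals mark TTTCCCGC or TTTGGCGC, forms of the E2F site. Ube2c, the ubiquitin-conjugating enzyme of mitotic exit, is at chr2:164769779-164769928 on the + strand, and Top2a at chr11:99024190-99024339 on the - strand. Cks1b, a subunit of cyclin-dependent kinases, is at chr3:89418292-89418441 on the - strand. Hells, a chromatin remodeler, is at chr19:38930840-38930989 on the + strand, and Mcm6, a subunit of the replicative helicase, at chr1:128359706-128359855 on the - strand.
Ube2c: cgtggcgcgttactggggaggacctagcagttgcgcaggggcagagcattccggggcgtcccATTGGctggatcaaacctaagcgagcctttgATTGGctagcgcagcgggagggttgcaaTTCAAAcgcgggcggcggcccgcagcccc
Top2a: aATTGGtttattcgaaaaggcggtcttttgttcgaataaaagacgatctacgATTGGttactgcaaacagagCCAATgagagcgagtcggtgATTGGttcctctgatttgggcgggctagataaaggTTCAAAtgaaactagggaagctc
Cks1b: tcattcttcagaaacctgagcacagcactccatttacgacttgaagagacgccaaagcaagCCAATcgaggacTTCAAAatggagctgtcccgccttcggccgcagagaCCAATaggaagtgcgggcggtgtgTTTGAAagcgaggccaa
Hells: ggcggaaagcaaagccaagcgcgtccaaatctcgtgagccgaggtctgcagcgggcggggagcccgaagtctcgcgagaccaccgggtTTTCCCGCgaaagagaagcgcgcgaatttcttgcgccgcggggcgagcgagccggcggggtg
Mcm6: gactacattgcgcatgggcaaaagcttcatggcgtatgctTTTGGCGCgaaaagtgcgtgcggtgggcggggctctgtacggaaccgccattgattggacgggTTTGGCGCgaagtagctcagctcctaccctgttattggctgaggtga
The CHR lies at position -29 of Ube2c, -23 of Top2a and -17 of Cks1b, counted from the annotated start, and Cks1b holds a second match at -77. The E2F form starts at -62 in Hells, and at -110 and -47 in Mcm6.

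Windows of 250 bases before the start were searched for the same letters on both strands, and overlaps between motifs were not removed. Of the mitosis genes of the lists used here (none of them a rule gene), 73 of 84 had a window, and 22 of those (30.1%) held a CHR. That share was 15.6% for the replication genes (7 of 45 with a window, of 56 listed), 12.6% for all genes with at least 10 CPM (1008 of 7987) and 16.0% over all 32851 promoter windows. Among the rule genes, 5 of the 9 with a window held it. CCAAT was as frequent in one wave as in the other: 67.1% of mitosis genes and 66.7% of replication genes held it, against 40.7% of all genes at 10 CPM and 33.8% of all windows. An E2F form was in 17.8% of replication genes (8 of 45) and 6.85% of mitosis genes (5 of 73), against 3.03% of all genes at 10 CPM and 1.30% of all windows. Of the lists outside the cycle, only 14 of 25 neuron genes and 16 of 26 fibroblast genes had a window, too few for a share. Among those, a CHR was in 3 neuron and 5 fibroblast genes, and CCAAT in 9 and 5, so neither motif is shown to be particular to the cycle genes. A match is a description of letters and not of binding.

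Outside the rule genes, almost all measured genes of DNA replication and mitosis were at least 2-fold higher in the dividing cells of both libraries. As a background, 7.92% of the 9369 genes with at least 10 CPM in either sum were at least 2-fold higher in dividing cells with supplements, and 6.82% of 9390 without supplements. The median log2 ratio over all tested genes was -0.04 and -0.12. Because the cells were selected on cycle genes, the counts below describe the selection, with no test. The lists and the ratios of their genes are shown by list in the plot of dividing over remaining cells.

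Genes of DNA replication, the early wave, are given first. Of the origin licensing and replication fork genes, 37 of 38 measured were at least 2-fold higher with supplements (median log2 ratio 2.40) and 35 of 37 without (2.14). Mcm10, which helps start the replicative helicase, had 22.5 and 24.0 CPM in dividing cells with and without supplements, against 0.351 and 0.760 CPM. Pcna, the sliding clamp of DNA polymerases, was less restricted, with 216 CPM in the dividing cells of both libraries against 55.4 and 49.7 CPM. For nucleotide supply and chromatin assembly, 14 of 15 genes were 2-fold higher in each library, with a median of 2.71 in both. Rrm2, the regulated subunit of ribonucleotide reductase, had 144 CPM in the dividing cells of both libraries against 2.18 and 2.37 CPM. The exception in both libraries was Dctpp1, a nucleotide pool enzyme gene, at 0.98 and 0.87 on the log2 scale. All 13 measured repair and checkpoint genes with supplements and all 14 without, such as Brca1 of homologous recombination, were 2-fold higher (medians 4.11 and 3.76).

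Most lists of mitosis genes, the late wave, had higher median ratios than the licensing and fork list. The rule genes peak late in the cycle, so the rule itself favours that order. Of the 31 spindle motor and cytokinesis genes, 31 were 2-fold higher in each library, with medians of 6.15 and 6.24. Hmmr, a spindle protein gene, had 193 and 277 CPM in dividing cells against 0.351 and 0.304 CPM. For mitotic kinases and cyclin partners, 18 of 18 and 17 of 18 were 2-fold higher (medians 4.21 and 4.46), and Cdc25a, a phosphatase of the G1 to S step, was the exception without supplements at 0.75. Aurkb, the kinase of the chromosomal passenger complex, had 60.1 and 117 CPM against 0.456 and 0.426 CPM. In the kinetochore list, 24 of 25 and 25 of 25 were 2-fold higher (medians 4.36 and 4.68). The anaphase-promoting complex list differed: 4 of 10 genes with supplements and 5 of 10 without were 2-fold higher. Its regulators Cdc20 (5.99 and 6.46 on the log2 scale) and Fbxo5 (5.21 and 5.56) were among them, while the core subunit genes Anapc5 (0.23 and 0.19) and Cdc16 (0.42 and 0.28) were not.

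**Figure D2:**
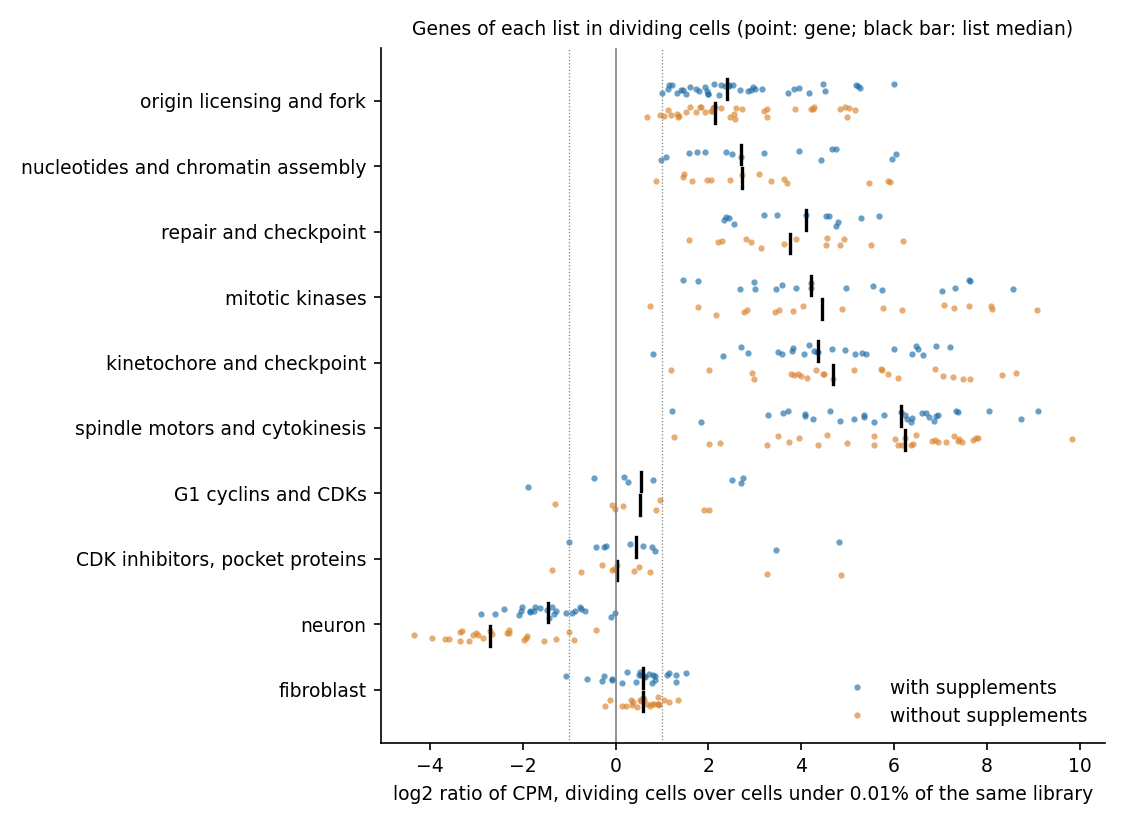
Log2 ratio of CPM in dividing cells over cells under 0.01% of the same library (x axis), for the measured genes of each list (rows), with supplements in blue and without in orange. Each point is a gene, black bars are list medians, and dotted lines mark 2-fold. Spindle genes have the medians of 6.15 and 6.24, and the neuron list lies below 0, with medians of -1.46 and -2.70.

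Condensin and cohesin genes were split in the same way. In each library 12 of 16 were 2-fold higher. The highest log2 ratio with supplements was that of Ncapg (7.27). Without supplements it was that of Esco2, an acetyltransferase of newly copied cohesin (9.13, and 6.90 with supplements). Nipbl, the cohesin loader that works in all cells, was at 0.43 and 0.26. The chromatin and lamina genes of cycling cells were 2-fold higher for 13 of 13 with supplements and 10 of 13 without (medians 1.80 and 1.95). Hmgb2, an architectural chromatin protein gene, had 1736 and 1958 CPM in dividing cells against 70.2 and 122 CPM. Among tubulins, Tuba1c was higher by 3.56 and 3.07 on the log2 scale, whereas Tubb2b, a tubulin of developing neurons, was lower, with ratios of -1.45 and -2.31.

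Regulators of entry into the cycle were less uniform. Of 16 cycle transcription factor genes, 10 with supplements and 8 without were 2-fold higher (medians 1.30 and 0.93), including Foxm1 (4.90 and 5.41) and Mybl2, the B-Myb gene (4.65 and 4.37). Myc was at 0.11 and 0.72. In the G1 list of 8 genes, 3 were 2-fold higher and 1 lower with supplements, and 2 were higher and 1 lower without. Ccnd2, a D cyclin gene, was the lower one, with 96.9 and 137 CPM in dividing cells against 357 and 337.5 CPM. Ccnd1, another D cyclin gene, had 476 CPM in dividing cells against 659 CPM with supplements, but 776 against 398 CPM without. The difference between the libraries in that contrast has no test.

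Of the inhibitor and pocket protein genes, 2 were 2-fold higher and 1 lower in each library, of 10 measured with supplements (median 0.45) and 11 without (0.04). Cdkn1a, the p21 gene, had 263 CPM in dividing cells against 153 CPM with supplements, and 180 against 191 CPM without. Cdkn2a, the locus of p16 and Arf, had 566 against 653 CPM with supplements and 774.5 against 549 CPM without. Cdkn1b, the p27 gene, was at -0.24 and -0.04 on the log2 scale. The 2-fold higher members of this list were Cdkn3, a phosphatase that acts on cyclin-dependent kinases (4.82 and 4.85), and Rbl1, the p107 pocket protein gene (3.47 and 3.27). Cdkn2b, the p15 gene, was the 2-fold lower one with supplements (-1.01), and Rb1, the retinoblastoma gene, without (-1.37, from 7.33 CPM in dividing cells against 18.9 CPM).

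Genes in no cycle list with the highest ratios in both libraries included histone and spindle genes. In all, 461 genes were 2-fold higher in both libraries, 520 were lower in both and 3 went opposite ways, of 8807 measured in both. Of the 461, 173 belonged to the cycle lists. Among the named genes with the highest lesser ratio were Sapcd2, Pclaf, H1f5, Troap, Pimreg, Fam83d, H2ac24, Shcbp1, Knstrn, Dlgap5 and Mxd3. Pclaf, a Pcna-binding factor, had 624 and 590 CPM in dividing cells against 2.67 and 3.01 CPM. H1f5, a linker histone gene, had 208 and 217 CPM against 1.33 and 1.31 CPM, and H2ac24, a replication-dependent histone gene, 129 and 170 CPM against 2.03 and 1.70 CPM. Mxd3, a partner of Max that opposes Myc, had 42.6 and 45.6 CPM against 0.737 and 1.06 CPM. Reads of near-identical histone or tubulin genes cannot always be assigned to 1 copy, so these values are uncertain.

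Genes with the lowest ratios in both libraries included genes of neuronal excitability and secretion. The background was 8.08% of 9369 genes at least 2-fold lower with supplements and 12.2% of 9390 without. The named genes were Cplx1, Ecel1, Kcnk9, Cntnap2, Dusp26, Stmn2, Chgb, Dgkg, Celf6, Syt4, Cacna1e and Pcp4. Stmn2, a microtubule regulator of growing axons, had 136 and 35.7 CPM in dividing cells against 1007 and 320 CPM. Cplx1, a complexin of vesicle fusion, had 5.76 and 4.16 CPM against 60.2 and 49.2 CPM. Chgb, a protein of secretory granules, had 270 and 411 CPM against 1851 and 3864 CPM. Ecel1, a peptidase gene of motor neurons and injured neurons, had 4.51 and 14.9 CPM against 39.7 and 137 CPM.

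Across the neuron list, 17 of 24 measured genes were 2-fold lower in dividing cells with supplements (median log2 ratio -1.46), and 23 of 25 without (-2.70). Not all neuronal genes were low. Nefl, the neurofilament light chain gene, had 2092 CPM in dividing cells and 2112 CPM in the remaining cells with supplements, and 901 against 1210 CPM without. Tubb3, the neuronal tubulin gene, had 457 against 1175 CPM with supplements and 119 against 589 CPM without. Of the motor neuron genes, 5 of 11 were 2-fold lower with supplements (median -0.97) and 9 of 11 were lower and 1 higher without (-2.22). The higher one was Slc5a7, the choline transporter gene (1.09, from 47.4 CPM against 22.2 CPM). Slc18a3, the vesicular acetylcholine transporter gene, was low in dividing cells, with 3.01 and 1.39 CPM against 19 and 16.8 CPM. Genes of neurogenesis were nearer to the remaining cells: 3 of 20 were 2-fold lower with supplements (median -0.30), and 8 of 18 were lower and 2 higher without (-0.74). The higher ones without supplements were Sox2, a progenitor factor (2.04, from 22.0 CPM against 5.35 CPM, with 25% of its UMIs in dividing cells from 1 cell), and Notch1, a receptor that holds progenitors back from differentiation (1.37).

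Fibroblast genes lay modestly above the remaining cells. Of 24 measured in each library, 5 were 2-fold higher and 1 lower with supplements (median 0.58), and 3 higher without (0.60). Col3a1, a fibrillar collagen gene, had 773 CPM against 312 CPM with supplements and 879.5 against 465 CPM without. Lum, a proteoglycan gene of connective tissue, had 280 against 98.1 CPM with supplements, and 96.7 against 43.4 CPM without. Prrx1, a mesenchymal transcription factor gene, was at 0.43 and 0.14 on the log2 scale.

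Reporter and cassette genes were measured in the same cells. The EGFP feature added to the reference had 2114 CPM in dividing cells against 2461 CPM with supplements (v.EGFP log2 ratio -0.22), and 882 against 2141 CPM without (-1.28). Reporter transcript was thus lowest in the dividing cells without supplements. Mnx1, whose regulatory DNA drives the reporter, had 10.0 against 12.5 CPM with supplements and 5.55 against 25.5 CPM without. Lhx3 had 96.2 against 94.1 CPM with supplements and 41.6 against 64.8 CPM without. Neurog2 (-0.42 and -0.61), Isl1 (-0.29 and -0.42) and Hras (-0.03 and 0.06) stayed within 2-fold, and Trp53 was at 0.67 and 0.65.

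Each cell was then thinned to 5000 UMIs and placed by which list held more of them, the 25 neuron genes or the 26 fibroblast genes. Cells are called neuron-leading or fibroblast-leading, which are ranges of a score and not cell types. Of 187 dividing cells with supplements that reached that depth, 109 were neuron-leading (58.3%, interval 50.9 to 65.4). Of 301 without supplements, 58 were neuron-leading (19.3%, 15.0 to 24.2). In the cells under 0.01%, the share was 84.4% with supplements and 69.1% without, and in the cells between the limits 72.6% and 45.6%. Among the dividing cells, 23 and 42 lay within 5 UMIs of the line, and 33 and 14 were left out as too shallow. Since the remaining cells of the libraries also differed, the share in dividing cells is to be read beside theirs.

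**Figure D3:**
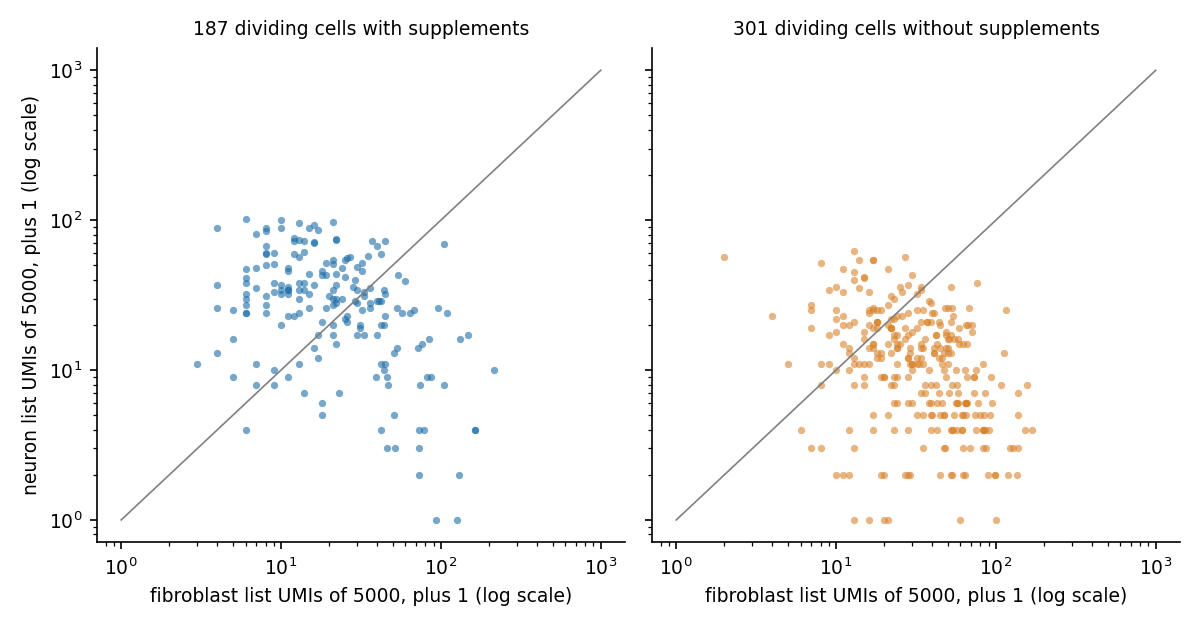
UMIs of the neuron list (y axis) against UMIs of the fibroblast list (x axis) in each dividing cell thinned to 5000 UMIs, both plus 1 on log scales, with supplements at left and without at right. Each point is a cell and the line marks equal counts. With supplements, 109 of 187 cells lie above the line, and without, 58 of 301.

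Neuron-leading dividing cells held fewer neuron-list molecules than the neuron-leading cells under 0.01%. With supplements the median was 40 of 5000 UMIs in neuron-leading dividing cells and 72 in neuron-leading cells under 0.01%. Without supplements it was 24 and 51. Over all dividing cells, the median was 29 UMIs of the neuron list with supplements and 10 without, and 20 and 33 of the fibroblast list. Doublets, in which a droplet holds more than 1 cell, could mix the lists. As a count, 2 of 187 (1.07%) dividing cells with supplements and 9 of 301 (2.99%) without held both Xist and Y-linked transcripts, against 2.0% and 2.85% of the cells under 0.01%. Among the 58 neuron-leading dividing cells without supplements it was 4 (6.90%), and the part of doublets in that group was not tested.

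Dividing cells were a smaller share of the neuron-leading range. With supplements, 6.44% of 1693 neuron-leading cells were dividing (5.32 to 7.71), and 18.8% of 400 fibroblast-leading cells (15.0 to 22.9). Without supplements, the shares were 2.82% of 2056 (2.15 to 3.63) and 17.8% of 1334 (15.8 to 20). Between the libraries, the neuron-leading shares stood further apart than the fibroblast-leading shares, with no replicate check. Along the reporter transcript, the share of dividing cells with supplements was 15.1% in cells with 0 v.EGFP UMIs of 5000, 12.0% at 1 to 4, 7.84% at 5 to 9, 6.11% at 10 to 19 and 7.49% at 20 or more. Without supplements it was 18.6%, 12.9%, 5.31%, 4.71% and 1.85% in the same order. At 20 or more v.EGFP UMIs, the interval was 5.18 to 10.4 with supplements and 0.848 to 3.48 without. These intervals take cells and not cultures as the unit, so they cannot tell the culture conditions apart.

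**Figure D4:**
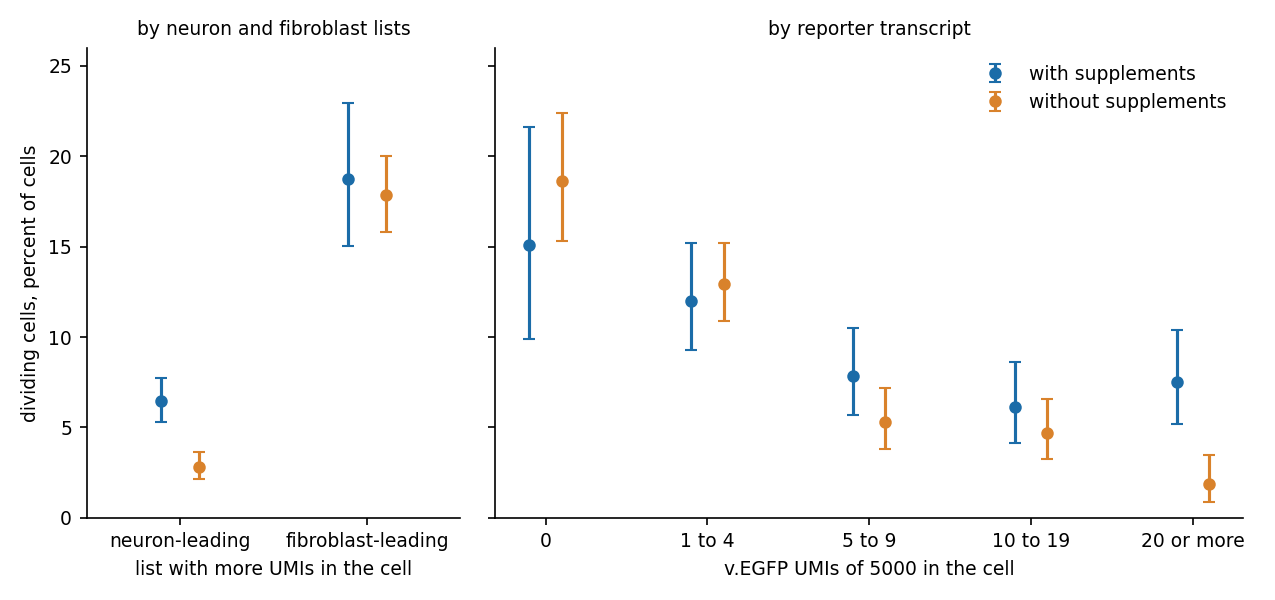
Dividing cells as a percentage of kept cells of at least 5000 UMIs (y axis), by the list with more UMIs (left) and by v.EGFP UMIs of 5000 (right), with supplements in blue and without in orange. Bars are 95% exact binomial intervals. Neuron-leading cells without supplements lie lowest at left (2.82%), as do cells of 20 or more v.EGFP UMIs without supplements at right (1.85%).

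Replication and mitosis molecules were also counted per thinned cell. With supplements, 38 of 187 dividing cells (20.3%, 14.8 to 26.8) held more UMIs of the replication lists than of the mitosis lists, and without supplements 39 of 301 (13.0%, 9.38 to 17.3). The median was 18 replication and 36 mitosis UMIs with supplements, and 16 and 49 without. The rule genes peak late in the cycle, so the rule itself favours cells with more mitosis molecules, and these shares give no phases. In the cells under 0.01%, the medians were 4 and 5 in both libraries.

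Between the libraries, dividing cells had list medians further from 0 for neuron, p53 target and glycolysis genes than for the machinery of division. Of 9146 genes measured, 5.63% (515) were at least 2-fold higher without supplements and 8.86% (810) at least 2-fold lower, with a median log2 ratio of -0.12. After subtraction of that median, the counts were 665 higher and 640 lower. In the cells under 0.01%, 5.43% of 9274 genes were higher and 4.74% lower, with a median of -0.01. Ratios below are without over with supplements. The libraries differed in composition too, so list medians are also given within the neuron-leading and within the fibroblast-leading range. Over all genes tested, those medians were -0.04 and -0.06 in dividing cells and 0.04 and -0.07 in the cells under 0.01%.

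Most cycle genes stayed within 2-fold between the libraries. Ratios above 0 were found for 13 of 38 licensing and fork genes and 28 of 31 spindle genes. Licensing and fork genes had a median ratio of -0.21 (-0.25 and -0.28 in the neuron-leading and fibroblast-leading ranges), and spindle genes one of 0.41 (0.31 and 0.34). Pcna (0.00), Rrm2 (-0.01) and Ube2c (0.08) were alike in level. Mki67 (0.76, interval 0.65 to 0.86), Prc1 (0.82, 0.71 to 0.93) and Top2a (0.56) were somewhat higher without supplements. Mki67, Top2a and Ube2c are rule genes, so their ratios come from the counts that chose the cells. Dividing cells had a median of 35.5 rule-gene UMIs with supplements and 51 without. More replication than mitosis UMIs were held by 20.3% and 13.0% of the thinned dividing cells. The part of the rule and of that mix in the cycle gene ratios was not tested. The spindle genes past 2-fold were Anln, a scaffold of the cleavage furrow (1.16), and Kif23, a motor of the central spindle (1.09). In the licensing and fork list, 2 genes were 2-fold lower, the lowest being Dscc1 (-1.27). Cdkn1c of the inhibitor list was lower as well (-1.38). Ccne1, the cyclin E1 gene of S phase entry, was also lower without supplements in dividing cells. It had 36.3 CPM in dividing cells with supplements and 10.1 CPM without (-1.85, -2.34 to -1.38), but 6.35 and 10.7 CPM in the cells under 0.01% (0.75). Its ratio was -1.69 in neuron-leading and -1.61 in fibroblast-leading dividing cells, and its UMIs came from 71 and 39 dividing cells. Ccne2, its paralog, was at -0.26.

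Neuron genes were often lower without supplements. In dividing cells, 15 of 22 genes of the list were 2-fold lower (median -1.46), and in the cells under 0.01%, 4 of 25 were lower and 2 higher (-0.33). Within the ranges, the medians came nearer to 0. In neuron-leading dividing cells, 6 of 22 were lower (-0.44) on a background of 6.21% of genes higher and 7.33% lower. In fibroblast-leading dividing cells, 10 of 22 were lower and 1 higher (-0.90) on a background of 6.29% and 8.65%. In the cells under 0.01%, the list medians were -0.14 in the neuron-leading and -0.68 in the fibroblast-leading range. Elavl3, a neuronal RNA-binding protein gene, had 62.9 CPM with and 18.6 CPM without supplements in dividing cells, but 105 and 145 CPM in the cells under 0.01%. Of the genes of neurogenesis, 9 of 19 were 2-fold lower in dividing cells (-0.98), and 3 of 20 in the cells under 0.01% (-0.11). Within the ranges, the dividing cells and the cells under 0.01% were closer: the medians were -0.27 and 0.06 in the neuron-leading range, and -0.98 and -1.03 in the fibroblast-leading range. Neurod1, a proneural target factor, had 79.6 CPM with and 23.6 CPM without.

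Many targets of p53 were lower in the dividing cells without supplements. Of 17 measured, 9 were 2-fold lower (median -1.04), against 1 of 14 in the cells under 0.01% (-0.45). Mdm2, the ligase that degrades p53, had 110 CPM with and 48.5 CPM without (-1.18, interval -1.41 to -0.95). Pmaip1, the Noxa gene of apoptosis, had 16.3 and 0.991 CPM (-4.04, -5.71 to -2.74), from 31 and 5 cells. Bax, a pore-forming apoptosis gene, had 392 and 185 CPM, and Plk2, a stress-response kinase gene, 111 and 30.7 CPM. Cdkn1a was at -0.55 in dividing cells and 0.32 in the cells under 0.01%. In neuron-leading dividing cells, 4 of 17 targets were lower (-0.74), and in fibroblast-leading dividing cells 15 of 19 (-1.17). Over all genes tested, 7.33% and 8.65% were lower in those ranges. In the cells under 0.01%, 1 of 14 targets was lower in the neuron-leading range (median -0.37) and 7 of 17 in the fibroblast-leading range (-0.80). Over all genes tested there, 414 of 9252 and 652 of 8876 were lower. Within dividing cells, Ccng1 (1.23) and Phlda3 (1.32) stood 2-fold above the remaining cells with supplements and at 0.41 and 0.34 without. Gtse1, a mitotic gene on the target list, was higher in dividing cells of both libraries (5.05 and 5.26).

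Glycolysis and hypoxia genes were higher without supplements whether or not cells were dividing. In dividing cells, 20 of 26 were 2-fold higher (median 1.5), and in the cells under 0.01%, 23 of 26 (1.63). Pgk1, a glycolytic kinase gene, had 262.5 CPM with and 1037 CPM without in dividing cells, and 225 and 977 CPM in the remaining cells. Slc16a3, the lactate exporter gene, had 8.27 and 35.5 CPM in dividing cells. The list gave 18 of 25 in neuron-leading (1.45) and 20 of 26 in fibroblast-leading dividing cells (1.54). Egln3, an oxygen-sensing hydroxylase gene, was the lowest at -0.54.

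**Figure D5:**
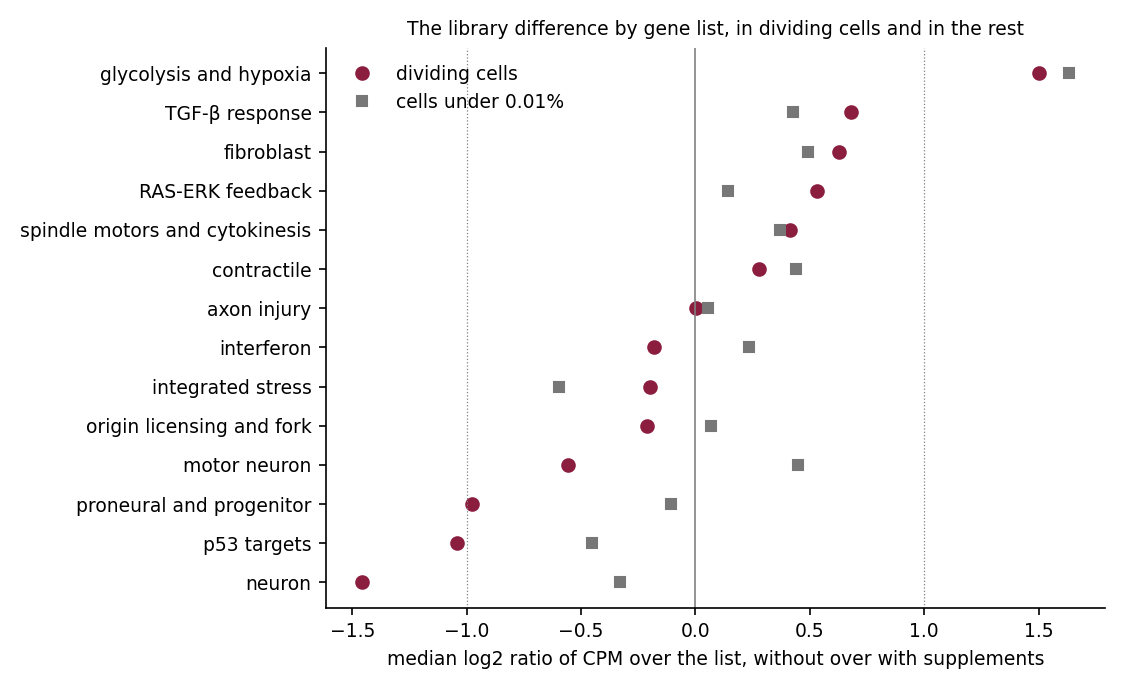
Median log2 ratio of CPM, without over with supplements (x axis), for 14 gene lists (rows), in dividing cells (circles) and in cells under 0.01% (squares). Dotted lines mark 2-fold. The glycolysis and hypoxia medians lie close together (1.5 and 1.63), and the neuron medians (-1.46 and -0.33) and p53 target medians (-1.04 and -0.45) apart.

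Fibroblast and RAS pathway genes were partly higher without supplements. Of the fibroblast list, 7 were 2-fold higher and 1 lower in dividing cells (median 0.63), against 6 and 1 in the cells under 0.01% (0.49), and within the ranges the medians were -0.05 and 0.00. Col1a1, the main collagen gene of fibroblasts, had 91.7 and 548 CPM in dividing cells (2.58) and 62.3 and 365 CPM in the remaining cells (2.55). Fn1, the fibronectin gene, had 135 and 397 CPM in dividing cells and 208 and 211 CPM in the remaining cells. Of the genes induced by RAS and ERK signalling, 6 of 19 were higher and 1 lower in dividing cells (0.53), and 3 of 17 were higher in the cells under 0.01% (0.14). Within the ranges, the medians in dividing cells were 0.40 and 0.42, against 0.18 and 0.33 in the cells under 0.01%. Among them, Fosl1, an AP-1 subunit gene, had 6.76 and 34.1 CPM, and Hbegf, an EGF receptor ligand gene, 20.8 and 61.2 CPM. Phlda1 was the lower one (-1.09). Of TGF-beta response genes, 6 of 15 were higher and 1 lower in both kinds of cell (0.68 and 0.43). The medians within the neuron-leading and fibroblast-leading ranges were 0.51 and 0.41 in dividing cells, against 0.08 and 0.62 in the cells under 0.01%.

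The single genes with the highest library ratio in dividing cells were Ccl5, Angptl7, Krtdap, Lcn2, Ccn1, Spon2, Fgfbp1, Il33, Scx, Mmp3, Tslp and Tnc, most of them secreted factors. Some took most of their level from 1 cell. For Ccl5, a chemokine, 1 cell held 67.2% of the UMIs of dividing cells without supplements, and for Angptl7 66.5%. Without the top cell of each library, the ratios were 5.68 and 4.54. Few cells held these genes, 4 with supplements and 11 without for Ccl5, and 3 and 19 for Angptl7. Others were spread over many cells. Ccn1, a matrix protein induced by TGF-beta and YAP, had 6.51 and 98.1 CPM, with UMIs in 134 dividing cells without supplements. Il33, a nuclear alarmin, had 7.76 and 107 CPM, in 15 and 108 cells, and 2.39 and 29.9 CPM in the cells under 0.01%. Tnc, the tenascin C gene, had 10.3 and 99.3 CPM, in 25 and 148 cells.

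Genes with the lowest library ratio were Gm15389, Cartpt, Cd28, Vip, Tph1, Gm10827, Calb1, Ccl12, Cxcl14, Tmem178, Sorbs2 and Pomc, with several neuropeptides among them. Cartpt, a neuropeptide precursor gene, had 68.4 CPM with and 1.19 CPM without in dividing cells (-5.85), and 400 and 29.0 CPM in the cells under 0.01%. Vip, another neuropeptide gene, had 21.5 CPM with supplements and 0 UMIs without, so that its ratio of -5.18, set at 3 UMIs, is a bound and the true ratio may be lower. Calb1, a calcium-buffering protein gene, had 287 and 10.3 CPM, in 102 and 24 dividing cells. Its ratio was -4.73 in neuron-leading and -3.80 in fibroblast-leading dividing cells. Gm15389 again took most of its level from 1 cell, which held 148 of its 200 UMIs with supplements. Without that cell its ratio was -4.45, also a bound, since it had 0 UMIs without supplements.

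Some genes had a library ratio in dividing cells far from that in the cells under 0.01%. The genes named for the largest positive gap were Fabp4, Ccl5, Areg, Angptl7, Srxn1, Anxa1, Cd44 and Fhl2, and for the largest negative gap Tmem178, Ccne1, Apba2, Lrrc4, Rgs2, Gadd45b, Elavl3 and Rapgef5. Anxa1, a phospholipid-binding protein gene, had 48.8 and 141 CPM in dividing cells with and without supplements, but 93.2 and 64.8 CPM in the remaining cells. Cd44, a hyaluronan receptor gene, had 59.9 and 110 CPM in dividing cells, and 115 and 59.8 CPM in the remaining cells. For both, the order of the libraries was thus opposite in the 2 kinds of cell. Rapgef5, an activator of RAP GTPases, had 44.6 and 2.58 CPM in dividing cells and 30.2 and 8.03 CPM in the remaining cells. For Rgs2, 1 cell held 35.3% of the UMIs of dividing cells with supplements. Composition differed too: fibroblast-leading cells were 40.1% of dividing cells with supplements and 79.1% without, against 15.3% and 30.3% of the cells under 0.01%. The gaps are not given within the ranges, and the part of composition in them was not tested.

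Markers of other cell types were scarce in the dividing cells. None of the 7 endothelial, 8 immune, 10 glial and 9 skeletal muscle genes reached 10 CPM in all dividing cells of either library together. In neuron-leading dividing cells alone, 1 immune gene was measured, with a log2 ratio of 2.72 without over with supplements. The highest of their lists were Kdr of the endothelial list at 4.26 CPM with supplements, Cd68 of the immune list at 8.92 CPM without and Ttn of the muscle list at 1.5 CPM with. Ptprc, Csf1r and C1qa of the immune list were at 0 UMIs in dividing cells without supplements, and Tek, Cldn5 and Tie1 of the endothelial list in both libraries. Of 8 epithelial genes, Krt18 reached 12.7 CPM in dividing cells without supplements, and Cdh1, Krt5 and Krt14 were at 0 UMIs there.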

How the data were processed

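Single-cell RNA-seq libraries (10x Genomics 3′ v3.1) of Hb9::GFP mouse cells were used, 1 library per group. The deposited values are UMI counts of each gene in each barcode, made with Cell Ranger 6.1.1 (per the file headers), with build GRCm39 per the submitters' processing notes; cell calling and intron counting are not given in the sources used here. Symbols listed more than once were summed, which left 31744 of 31783 features. The deposited matrices held 2467 barcodes with supplements, 3893 without and 4602 at 4 dpi, and 2314, 3716 and 4492 were kept. Summed depth of the dividing cells was 3992706 UMIs with supplements and 5046919 without. Doublets were not removed.

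Counts of the cells of each group were added up and scaled to CPM. Genes with at least 10 CPM in either sum were compared by log2 ratio, with exact binomial intervals on the split of UMIs; a sum of 0 was set to 3 UMIs. A gene was called at 2-fold, with no test, since each group is 1 library and the dividing cells were selected on these counts. Thinning drew 5000 UMIs per cell. Genes named outside the lists were those with the 12 highest and lowest lesser ratios over both libraries, the 12 highest and lowest library ratios, and the 8 largest gaps in each direction, at 20 CPM; 1 of the first set is not reported here. The members and the 33 gene lists were chosen with earlier results of these data known. The ratio code was tested on simulated counts. Promoter windows are RefSeq GRCm38.p6, matched by symbol; their coordinates are not those of the count build. Python 3.11.15, numpy 2.4.6, scipy 1.17.1 and pandas 2.3.3 were used. Alternatives were the thresholds, filters, scalings and depths, and 4 choices of cells made after seeing the data.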

Additional observations from a re-analysis of the deposited data

Results flagged for a closer look

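A few genes went past 2-fold in opposite directions in the groups compared. None of these differences was tested, since each group is 1 library. Cox4i2, a cytochrome oxidase subunit gene, was higher in dividing than in remaining cells with supplements (log2 ratio 1.05) and lower without (-1.10). Gucy1b1, a subunit of the nitric oxide receptor, was at 1.05 with supplements and -1.67 without. Sprr1a, a gene induced in injured neurons, was at -3.97 and 3.02, but its 66 UMIs in dividing cells without supplements came from 4 cells, and 1 of them held 54.5%.

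Between the libraries, Areg, an EGF receptor ligand gene, was higher without supplements in dividing cells (1.65) and lower in the cells under 0.01% (-1.05), with 32.1% of its UMIs in dividing cells without supplements in 1 cell. Fabp4, a fatty acid carrier gene, was at 3.18 in dividing cells and -1.0 in the cells under 0.01%, from 5 dividing cells with supplements and 33 without. Sprr1a was at 1.38 and -5.60.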

How the results depend on the processing

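No paired analysis was possible because each group is 1 library. Medians of some lists and ratios of the genes named outside the lists were followed under the alternatives. None of those past 2-fold turned its direction, and other genes and lists were not followed in this way. Of the shares and gene counts under each alternative, 76 stayed and 18 moved out of their counting interval or by over 1.5 times; of list medians, 168 stayed within 1.5 times and 6 did not; of named-gene values, 442 stayed within their interval and 86 did not. At a member threshold of 0.05% or 0.2%, the dividing share was 12.5% or 6.05% with supplements and 10.5% or 6.62% without. Asking for more than 2 times the UMIs of the other list gave 42.8% and 8.64% neuron-leading dividing cells, and 3.74% and 1.33% with more replication than mitosis UMIs; at 0.2% the latter were 9.02% and 5.93%. With no CPM filter and thus more genes tested, 3374 genes were higher and 1912 lower in dividing cells with supplements, 2709 and 2793 without, and 1183 and 2437 between the libraries. At 20 CPM, 733 were lower in dividing cells without supplements and 488 lower without supplements in dividing cells. With totals free of mitochondrial and ribosomal genes, 689 genes were higher and 817 lower between the libraries. Alternatives chosen after seeing the data gave 576 and 680 in neuron-leading cells alone, 566 and 778 in fibroblast-leading cells alone, 534 and 778 without each gene's top cell, and 513 and 807 without cells under 5000 UMIs. The cause of these moves was not tested.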

Other observations

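Interferon-induced genes were measured in dividing cells as a further group. With supplements, 4 of 15 were at least 2-fold higher in dividing than in remaining cells (median log2 ratio 0.61), and without supplements 0 of 15 (0.29), with no test. Over all genes tested, 7.92% and 6.82% were at least 2-fold higher and 8.08% and 12.2% at least 2-fold lower. Bst2, which tethers budding viruses, had 510 CPM in dividing cells against 240 CPM with supplements, and 513 against 339 CPM without. Ifi27l2a had 281 against 118 CPM and 575 against 297 CPM. Of integrated stress response genes, 2 of 21 were at least 2-fold lower with supplements (-0.38) and 2 of 20 without (-0.11), near the shares over all genes. Secreted peptide genes were lower for 7 of 14 and 8 of 13 (-1.44 and -1.76), and 1 was higher in each, Prok2 with supplements (2.04) and Apln without (1.02).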
